A study of Mus musculus with 12 samples.

Results

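The anticodon of a transfer RNA (tRNA), bases 34 to 36, was examined base by base for reverse transcriptase stops in hematopoietic stem and progenitor cells of the mouse, which give rise to all blood lineages. Each tRNA was searched from row 32 to row 38 for the 3 bases that spell the anticodon in its name, directly after a T or a C, and bases 34, 35 and 36 were taken whatever their letter. Of 404 tRNA entries, 364 had exactly 1 such place. Entries that hold identical values were counted once, which left 186 of 213 distinct tRNAs. Another 25 distinct tRNAs had no such place and 2 had several. This gave 558 anticodon bases of 46 anticodons, out of 14012 base rows of all distinct tRNAs.

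The old and the young cells both came from wild-type mice, and the labels used here give no age in weeks or months. At each age, small RNA was demethylated with wild-type and mutant AlkB enzymes and then incubated in BEU buffer with CMC or in the same buffer without it. CMC is a carbodiimide that remains bound to pseudouridine through a later alkaline step and blocks reverse transcriptase there. The 4 groups (old CMC, old BEU, young CMC, young BEU) hold 3 libraries each, and the labels do not say whether the libraries of a group came from different mice. The p-values below therefore measure the spread between libraries, which may be technical. Since the tables hold tRNA only, the labelled cell type could not be checked against marker genes.

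In a folded tRNA the anticodon is the middle of a 7-base loop, where it pairs with the codon of the messenger RNA. Base 34 is the wobble base and is among the most heavily modified in tRNA: A34 is turned into inosine, U34 of the Glu, Gln, Lys and Arg tRNAs carries bulky side chains, and G34 of Tyr, His, Asn and Asp tRNAs is exchanged for queuosine. Pseudouridine, an isomer of uridine, is rarer within the anticodon than around it. Its best known sites there are base 35 of tRNA-Tyr, made by Pus7 in yeast, and bases 34 and 36 of tRNA-Ile with the anticodon UAU, made by Pus1 in yeast.

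The anticodon arms of the tRNAs on which the results turn are given below, 5′ to 3′, as the DNA letters of the deposited rows, with the anticodon in capitals. The first 3 hold the pseudouridine sites and a further tRNA with a high CMC stop, and the next 2 are a pair of Glu tRNAs that share an anticodon and differ in stop rate. Another 3 have stops that were lower with CMC or were called different between ages, and the last has a high stop in BEU with 2 libraries at the coverage ceiling. Sequences span positions 27 to 43, except that of tRNA-Ile-TAT-2-1, which spans 31 to 43.
tRNA-Tyr-GTA-2-1: gaggactGTAgatcctt
tRNA-Ile-TAT-2-1: actTATaatgccg
tRNA-Arg-TCT-1-1: ttggactTCTaattcaa
tRNA-Glu-TTC-1-1: cctggttTTCacccagg
tRNA-Glu-TTC-3-1: cggcgctTTCaccgccg
tRNA-Arg-CCT-1-1: ctggcctCCTaagccag
tRNA-Trp-CCA-6-1: tctgactCCAgatcaga
tRNA-Gln-TTG-1-1: ctggactTTGaatccag
tRNA-Leu-CAG-1-1: ctgcgttCAGgtcgcag

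The stop rate is the percent of the reads covering a base that end there. Such an end can be a halt of the enzyme or the 5′ end of an RNA fragment, which the tables do not separate. Median coverage of the 558 anticodon bases ranged from 57.5 to 178.5 reads in the old CMC libraries and from 848.5 to 3861.5 in the old BEU libraries. It ranged from 60.0 to 409 in the young CMC libraries and from 1098 to 2818.5 in the young BEU libraries. CMC and coverage therefore moved together, and the part of coverage in the differences between CMC and BEU was not tested. Coverage had a ceiling near 8015 reads, beyond which stops further 3′ are lost. From 0 to 56 distinct tRNAs reached 7500 reads in a CMC library, against 21 to 103 in a BEU library. A base was tested when it was covered by at least 20 reads in all 12 libraries, which 406 of the 558 anticodon bases from 42 anticodons passed. Of these, 218 also stayed below the ceiling, with coverage at the base and at every base 5′ of it under 7500 in all 12 libraries.

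The stop rate was called higher with CMC at few anticodon bases, and 5 of the 7 called at either age were the middle base of tRNA-Tyr. A rise was called at an adjusted p under 0.05 in edgeR's quasi-likelihood test, when the stop rate was on average 10 or more percentage points higher with CMC and higher in each of the 3 pairs. In old cells 5 of 406 anticodon bases were called (1.23%), against 4.79% of all 10059 bases tested. In young cells 5 of 406 were called (1.23%), against 4.26%. T, read as U in the RNA and the only base that can be a pseudouridine, made up 90 of the tested anticodon bases. Among those, 4 were called in old cells (4.44%), beside 19.8% of all T, and 5 in young cells (5.56%), beside 18.2% of all T. Leaving out tRNA-Tyr, 1 of 85 T from 25 anticodons was called in old cells and 0 in young cells. Their rises lay between -4.85 and 11.97 points in old cells and between -8.20 and 6.73 points in young cells.

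The T bases around the anticodon differed by position. Position 33, the uridine that precedes nearly every anticodon, was called at 0 of 134 T in either age, with median rises of 1.57 points in old cells and 1.26 points in young cells. Position 38 was called at 19 of 20 T in old cells and at 19 of 20 in young cells, with medians of 43.7 and 40.3 points. At position 39, 57 of 71 T were called in old cells and 56 of 71 in young cells. Within the anticodon, the median rise of T in old cells was 3.17 points at position 34, 2.61 at position 35 and 2.03 at position 36. In young cells these medians were 1.13, 1.33 and 1.83 points. Over all tested T the median rise was 2.25 points in old cells and 1.75 in young cells.

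**Figure D1:**
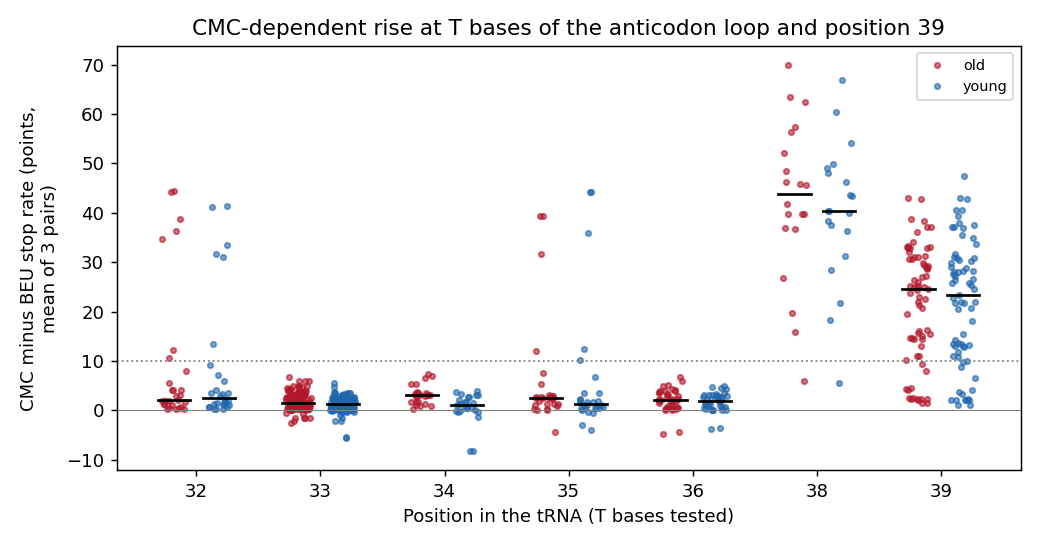
Each point is 1 distinct tRNA with a tested T at the given position (x axis). The y axis is the stop rate with CMC minus that in BEU, in percentage points, averaged over 3 pairs, old cells to the left in red and young cells to the right in blue. Black bars are medians and the dotted line marks 10 points. Apart from tRNA-Tyr at position 35 and 1 tRNA-Glu in old cells, the T bases at 34 to 36 lie under the dotted line, while most at 38 and 39 lie above it.

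Taking for each anticodon the T with the most reads gave the same view. At position 34, 12 anticodons had rises from 0.37 to 7.44 points in old cells, the highest in tRNA-Leu-TAA-2-1, and from -8.20 to 4.0 points in young cells, the highest in tRNA-Pro-TGG-2-1. At position 35, 9 anticodons had rises from 0.12 to 39.3 points in old cells and from -0.60 to 44.3 points in young cells. Both upper ends belong to tRNA-Tyr, and without it the highest were 3.11 points in old cells (tRNA-Lys-CTT-3-1) and 3.49 points in young cells (tRNA-Asn-GTT-3-1). At position 36, 10 anticodons had rises from -0.01 to 5.22 points in old cells and from 0.06 to 4.81 points in young cells. None of these best-covered T was called at position 34 or 36 in either age.

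Position 35 of tRNA-Tyr, the T of the GTA anticodon, is the textbook pseudouridine of the group. In tRNA-Tyr-GTA-2-1 the stop rate was 36.2, 43.4 and 43.2% in the old CMC libraries, against 1.13, 2.05 and 1.69% in the old BEU libraries. In young cells it was 55.1, 47.5 and 46.2% with CMC, against 4.61, 5.89 and 5.42% in BEU. Every CMC library was above every BEU library, at both ages. The rise was 39.3 ± 3.66 points in old cells (SD over 3 pairs, adjusted p = 4.1e-07) and 44.3 ± 5.40 points in young cells (adjusted p = 2.2e-06). The CMC rates rest on 53 to 118 reads per old library and 39 to 366 per young library. The exact (Clopper-Pearson) 95% interval of the young CMC library with 39 reads ran from 30.1 to 62.8%, and such intervals cover counting error only. The bases on both sides did not pass the 10-point rule. The differences at G34 of the same tRNA were 7.80 ± 6.59 points in old cells and 3.70 ± 3.57 in young cells, and those at A36 were 3.50 ± 2.46 and 1.82 ± 1.51.

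The 5 distinct tRNA-Tyr fell into 2 levels at position 35. With CMC the mean rate was 32.4% in old cells and 38.7% in young cells for tRNA-Tyr-GTA-1-1, and 40.9% and 49.6% for tRNA-Tyr-GTA-3-1. It was 7.72% and 13.04% for tRNA-Tyr-GTA-4-1, and 5.42% and 10.6% for tRNA-Tyr-GTA-5-1. The last 2 were called in young cells, with rises of 12.4 ± 5.69 and 10.2 ± 4.72 points. In old cells their rises of 7.62 ± 3.37 and 5.33 ± 2.06 points missed the 10-point rule, at adjusted p-values of 1.4e-05 and 3.1e-05. The young call of tRNA-Tyr-GTA-5-1 was lost without young replicate 1, at a mean rise of 8.7 points, and without young replicate 3, at 9.0 points. It was also lost with 1 subtracted from stop reads and coverage, at 8.01 points. All 5 have the same bases from position 27 to 43. Over the whole entries, compared over 55 of 75 rows for all pairs but 1, any pair differed in at most 1 base, at row 59. Pairs of different levels differed there, and so did pairs within a level (1-1 against 2-1 and 3-1, and 4-1 against 5-1), while 2-1 and 3-1 differed in no compared row. No source used here gives the way reads are shared among such near-identical entries, so the levels of single entries are uncertain. With the counts of all 5 entries summed, the rise was 28.7 ± 3.51 points in old cells and 34.2 ± 4.74 points in young cells. Mean coverage at this base was 1146.17 reads in 2-1 and 1146 in 3-1, with the same old CMC mean. Whether the same reads are counted in several entries was not tested. The sum may therefore count a read more than once, and it does not settle the level.

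**Figure D2:**
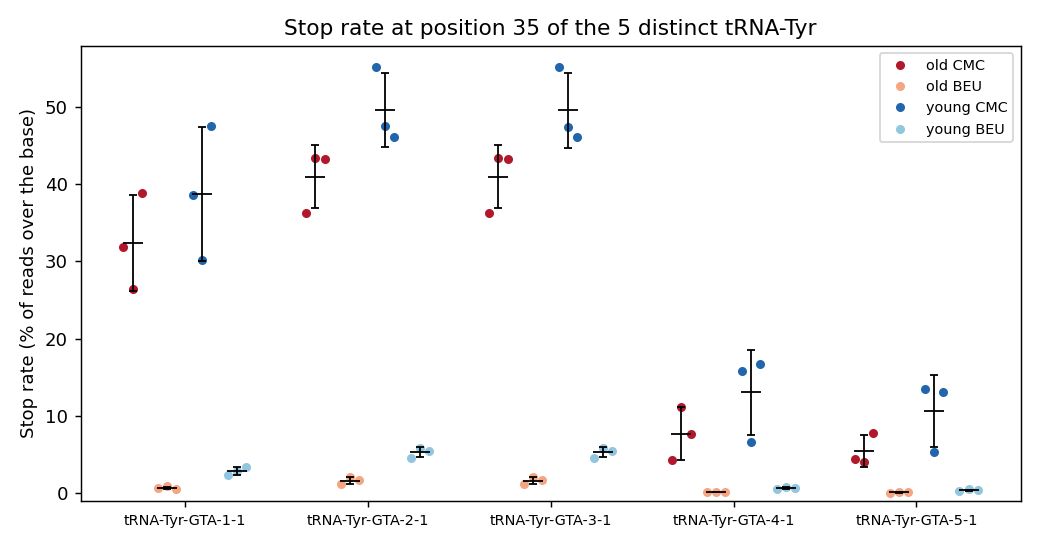
Stop rate at position 35 (y axis, percent of reads over the base) for the 5 distinct tRNA-Tyr (x axis), 1 point per library and 3 libraries per group, with the mean and SD in black. For each tRNA the groups run old CMC, old BEU, young CMC, young BEU. The CMC rates of the first 3 tRNAs lie between 26.5 and 55.1%, and those of the last 2 between 4.0 and 16.7%, while all BEU rates lie under 6%.

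Beside tRNA-Tyr, 2 anticodon bases were called, both in old cells only. Base 35 of tRNA-Glu-TTC-3-1, a T in the middle of the TTC anticodon, had 21.2, 25.6 and 19.3% in old CMC libraries, against 9.15, 10.4 and 10.7% in old BEU libraries. Its rise was 11.97 ± 3.28 points in old cells (adjusted p = 0.006) and 6.73 ± 2.82 points in young cells (adjusted p = 0.048). The old and young rises overlapped, and the age difference was not tested there. C34 of tRNA-Leu-CAG-4-1, which as a cytidine cannot be a pseudouridine, had 58.0, 47.9 and 51.6% in old CMC libraries, against 30.2, 38.6 and 37.8% in old BEU libraries. It rose by 16.9 ± 9.65 points in old cells (adjusted p = 0.042) and by 3.13 ± 10.8 points in young cells (adjusted p = 0.76). This call was lost when any of the old replicates or young replicate 1 was left out, with old rises of 11.5 to 20.8 points. It was also lost with limma, with the replicate block, with T and other bases adjusted separately, and with 1 subtracted from stop reads and coverage. The call of tRNA-Glu-TTC-3-1 was lost without old replicate 1, at a rise of 11.9 points, and without old replicate 2, at 10.4 points. The arm of this tRNA differs from that of tRNA-Glu-CTC-1-1 at the wobble base only. How reads are shared between the pair is not given, so its level is uncertain.

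The other known anticodon sites lay in tRNAs with too few CMC reads for the coverage minimum. Base 34 of tRNA-Ile-TAT-2-1, the first of the pair of T in the TAT anticodon, had 55.9, 78.6 and 62.9% in old CMC libraries, against 6.55, 6.18 and 8.20% in old BEU libraries. In young cells it had 52.9, 58.3 and 70.0% with CMC, against 20.0, 19.9 and 17.8% in BEU. CMC libraries were above BEU libraries in both ages. Coverage with CMC was only 10 to 120 reads, and the exact interval of the library with 10 reads ran from 34.8 to 93.3%. At a coverage minimum of 10 reads this base was called in both ages, with rises of 58.8 ± 12.1 points in old cells (adjusted p = 4.6e-06) and 41.2 ± 9.88 points in young cells (adjusted p = 0.00049). At that minimum 4.87% of all bases were called in old cells and 4.31% in young cells. The second distinct tRNA of this anticodon, tRNA-Ile-TAT-1-1, had mean rates at base 34 of 38.1% with CMC and 3.98% in BEU in old cells, and 40.3% and 12.98% in young cells, with CMC coverage of 5 to 86 reads.

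Base 36 of tRNA-Ile-TAT, the third base of the anticodon, was much lower. In tRNA-Ile-TAT-2-1 it averaged 8.69 ± 3.73% with CMC and 4.42 ± 0.90% in BEU in old cells, and 9.79 ± 1.73% with CMC and 4.70 ± 0.69% in BEU in young cells (SD, n = 3 each). Its rises of 4.27 ± 3.63 and 5.09 ± 1.09 points were not called at the minimum of 10 reads. In tRNA-Ile-TAT-1-1 the rises were 12.05 ± 10.3 points in old cells and 5.92 ± 6.92 points in young cells.

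A further T with a high CMC rate was base 36 of tRNA-Arg-TCT, the last base of the TCT anticodon. In tRNA-Arg-TCT-1-1 it had 44.7, 40.0 and 35.1% in old CMC libraries, against 2.09, 3.27 and 2.41% in old BEU libraries. In young cells it had 54.3, 41.3 and 23.8% with CMC, against 2.29, 2.59 and 2.75% in BEU. The groups did not overlap at either age. One old CMC library had 15 reads there, so the base could be tested in this entry only with lower coverage minimums. It was called with minimums of 10 and 1. At 10 reads, edgeR's adjusted p-values were 1.3e-05 in old cells and 1.1e-05 in young cells. At that minimum base 34 of this tRNA was called in old cells only. It rose by 12.4 points in old cells (adjusted p = 0.044) and 8.64 in young cells (adjusted p = 0.058). With the counts of the 4 distinct tRNA-Arg-TCT summed, base 36 rose by 32.8 ± 5.87 points in old cells and 36.3 ± 9.28 in young cells. Such a sum, too, may count a read more than once. Base 34 of the same anticodon rose by 16.1 ± 12.6 points in old cells and 11.3 ± 5.36 in young cells. The middle base is a C and still rose by 10.8 ± 6.79 points in old cells, where it was called, and had 7.94 ± 4.85 points in young cells. Summed per anticodon, 10.6% of 767 bases of positions 27 to 43 were called in old cells and 10% in young cells. Position 36 of tRNA-Phe-GAA, an A, was called in young cells with 10.5 ± 9.87 points, and in old cells had 4.72 ± 1.498 points.

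**Figure D3:**
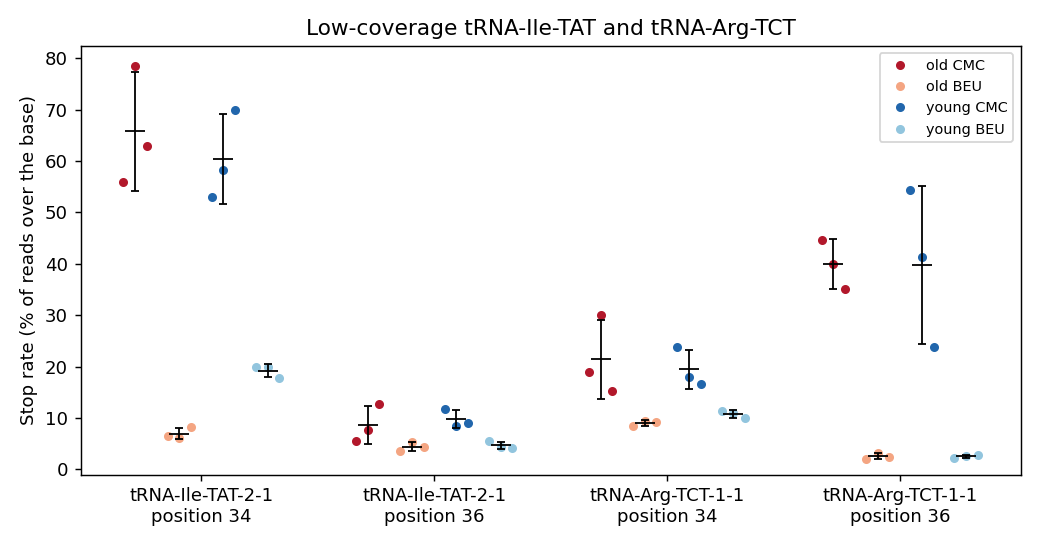
Stop rate (y axis, percent of reads over the base) at positions 34 and 36 of tRNA-Ile-TAT-2-1 and tRNA-Arg-TCT-1-1 (x axis), 1 point per library, with the mean and SD of 3 libraries in black. For each base the groups run old CMC, old BEU, young CMC, young BEU. The CMC and BEU points lie far apart at position 34 of tRNA-Ile-TAT-2-1 and at position 36 of tRNA-Arg-TCT-1-1, on 10 to 172 reads per CMC library.

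Many anticodon bases had read ends without CMC. In BEU the median stop rate of the 406 tested anticodon bases was 2.20% in old cells and 2.76% in young cells, against 0.87% and 0.88% over all tested bases. Of the 406, 112 had a mean BEU rate of at least 5%, and 57 of at least 10%. C contributed 58 of the 112, T 31, A 14 and G 9. At position 34 the G bases were lowest, with medians of 0.18% in old cells and 0.40% in young cells, and none of the 39 reached 5%. A34, the base turned into inosine, had medians of 3.44% and 4.37%, and C36 had the highest medians of any base and position, 6.44% and 6.51%.

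The highest BEU rate lay at C34 of tRNA-Leu-CAG-3-1, with 81.5, 91.2 and 89.9% in old BEU libraries and 88.0, 88.8 and 86.3% in young BEU libraries. CMC libraries were in the same range, at means of 89.3% in old cells and 84.5% in young cells, and 1 library was at the ceiling. This entry differs from tRNA-Leu-CAG-1-1 in 1 of 75 compared rows, at row 16. How reads are shared between the 2 is not given, so its level is uncertain. The next highest BEU rate lay at T34 of tRNA-Glu-TTC-3-1, the wobble base of the Glu anticodon. It had 73.8, 79.9 and 79.3% in old BEU libraries and 79.4, 77.7 and 74.0% in young BEU libraries. With CMC it had means of 81.4% in old and 75.8% in young cells, and no rise was called. C36 of the same tRNA averaged 50.4 ± 15.4% in old and 52.5 ± 11.4% in young BEU libraries, with 2 libraries at the ceiling. The levels of this tRNA are uncertain too, as its arm matches that of tRNA-Glu-CTC-1-1 outside the wobble base.

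The other 2 distinct tRNA-Glu-TTC had far lower rates at this wobble base. T34 of tRNA-Glu-TTC-1-1 had 0.53, 4.82 and 4.47% in old BEU libraries and 5.23, 5.33 and 0.55% in young BEU libraries, where the lowest library of each age was at the ceiling. T34 of tRNA-Glu-TTC-2-1, with the same arm, averaged 3.31 ± 2.497% in old and 4.32 ± 2.04% in young BEU libraries. All 12 libraries of tRNA-Glu-TTC-3-1 were at least 73.1%. The arms of tRNA-Glu-TTC-1-1 and 3-1 differ in 7 of 17 bases, as the sequences above show, with the anticodon in common. Over the whole entries these 2 differ in 15 of 74 rows. The arm of tRNA-Glu-TTC-3-1 equals that of tRNA-Glu-CTC-1-1 at every base but the wobble base. The whole entries of that pair were not compared. How reads are shared between them is not given, so the anticodon stop rates of tRNA-Glu-TTC-3-1 are uncertain. Whether reads of tRNA-Glu-CTC-1-1 contribute to these rates was not tested. With CMC, T34 of tRNA-Glu-TTC-1-1 averaged 8.63 ± 1.00% in old cells and 7.39 ± 0.61% in young cells.

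After Leu and Glu came A34 of tRNA-Val-AAC-5-1, at 42.9 ± 1.06% in old and 39.6 ± 2.06% in young BEU libraries. C36 of tRNA-Val-AAC-4-1 had 35.01 ± 4.39% in old and 41.4 ± 4.31% in young BEU libraries. C34 of the initiator tRNA-iMet-CAT-2-1, which reads the start codon, had 25.8 ± 2.49% and 25.4 ± 0.25%. C34 of tRNA-Gln-CTG-5-1 had 23.1 ± 0.71% and 27.01 ± 0.42%, and C36 of tRNA-Val-CAC-1-1 21.8% and 26.5%. C35 of tRNA-Ser-GCT-1-1 had 33.4 ± 12.2% and 41.1 ± 3.42%, with 2 libraries at the ceiling. C34 of tRNA-Leu-CAG-2-1, among the 10 highest mean rises, and of the near-identical tRNA-Leu-CAG-1-1 also had 2 libraries at the ceiling. In tRNA-Leu-CAG-1-1 it had 0.94, 42.5 and 40.9% in old BEU libraries and 10.8, 41.2 and 1.95% in young BEU libraries, and its mean rises of 19.3 ± 24.2 points in old cells and 18.2 ± 19.2 points in young cells were smaller than their spread. With CMC it had from 46.7 to 48.1% in old and from 34.3 to 37.5% in young cells. No rise was called there. Other high mean rises that were not called include A34 of tRNA-Val-AAC-1-1, with 16.75 points in old and 4.13 in young cells. C36 of the same tRNA had 10.2 and 7.59 points, and C36 of tRNA-Val-CAC-2-1 had 7.91 and 10.99. C35 of tRNA-Ser-GCT-4-1 had 14.4 points in old and -0.15 in young cells, and all 4 had 1 to 5 libraries at the ceiling. G35 of tRNA-Ser-CGA-1-1, with 0 libraries at the ceiling, had 9.28 points in old and 4.89 in young cells, also not called. C34 of tRNA-Val-CAC-2-1 had 7.07 and 6.71 points, and G34 of tRNA-Asn-GTT-1-1 had 7.33 and 4.49. Among the 10 highest CMC rates, C36 of tRNA-Val-AAC-5-1 had means of 27.1% in old and 37.5% in young CMC libraries. C34 of tRNA-Thr-CGT-4-1 had 19.8% and 23.1%.

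**Figure D4:**
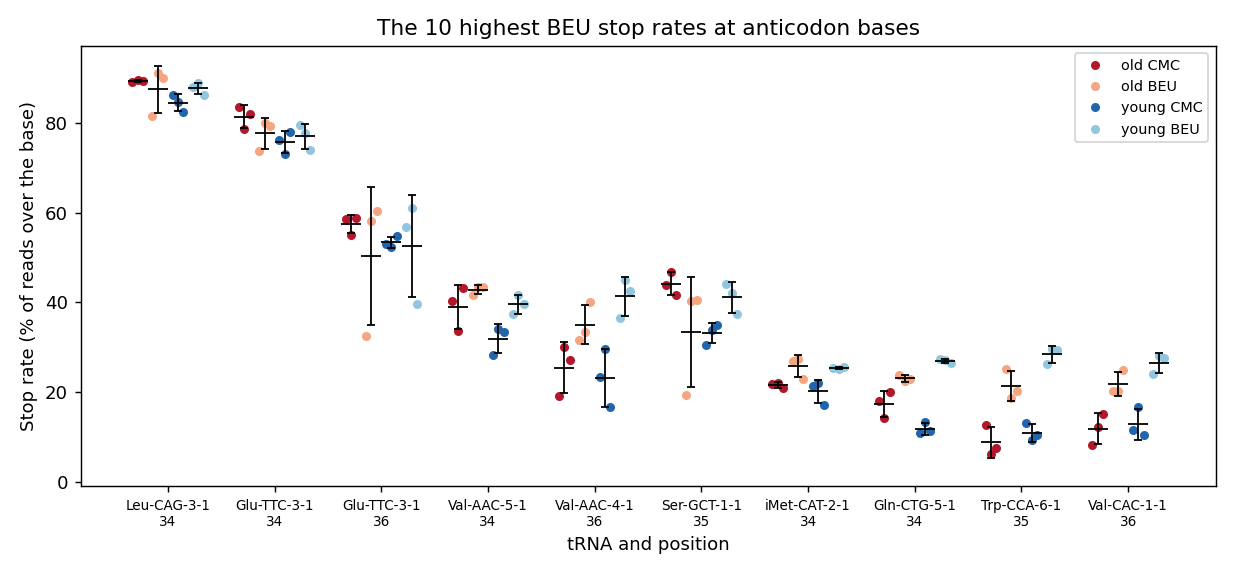
The 10 highest mean BEU stop rates at anticodon bases (at most 1 per anticodon and position), by tRNA and position (x axis) and stop rate (y axis, percent of reads over the base). Each point is 1 library, with the mean and SD of 3 libraries in black, in the order old CMC, old BEU, young CMC, young BEU. The first 2 bases stay above 73% in every library, and in the last 3 the young CMC points lie below the young BEU points.

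The stop rate was lower with CMC at some anticodon bases. By the same rule turned round (adjusted p under 0.05, a mean fall of at least 10 points and a fall in all 3 pairs), which was added after the values were seen, 7 bases fell in young cells and 1 in old cells. The table as a whole had 0.268% such bases in young cells and 0.199% in old cells. All 7 were C, out of 127 tested anticodon C. Over all tested C, 7 fell in young cells (0.233%) and 1 in old cells (0.0332%), so no C outside the anticodon fell by this rule. C35 of tRNA-Trp-CCA-6-1, the middle base of the Trp anticodon, fell in both ages. It had 12.8, 6.25 and 7.55% in old CMC libraries, against 25.1, 18.7 and 20.3% in old BEU libraries. In young cells it had 13.2, 9.27 and 10.3% with CMC, against 26.3, 29.6 and 29.3% in BEU. Its differences were -12.5 ± 0.23 points in old cells (adjusted p = 0.0074) and -17.5 ± 3.84 points in young cells (adjusted p = 0.0037). These SDs are over pairs matched by replicate number, which did not pair the libraries. The SD of 0.23 points is far smaller than the spread within the old CMC or the old BEU libraries. The old call was lost without old replicate 3, at -12.4 points.

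The others fell in young cells only by this rule. C34 of tRNA-Arg-CCT-1-1 had 5.26, 5.76 and 6.36% in young CMC libraries, against 15.1, 17.9 and 16.2% in young BEU libraries, a difference of -10.6 ± 1.35 points (adjusted p = 0.00047). In old cells it had 2.66, 2.17 and 2.42% with CMC, against 7.54, 7.10 and 9.77% in BEU. The young differences were -10.5 points at C34 of tRNA-Arg-CCT-2-1, -15.2 at C34 of tRNA-Gln-CTG-5-1 and -11.2 at C35 of tRNA-Trp-CCA-2-1. They were -18.2 at C36 of tRNA-Val-AAC-4-1 and -13.7 at C36 of tRNA-Val-CAC-1-1, both of which lost the call without young replicate 1 (-20.7 and -14.3 points) or 3 (-14.3 and -11.9 points). Both also lost it with the replicate block and with 1 subtracted from stop reads and coverage. tRNA-Val-AAC-4-1 lost it too without old replicate 2 or 3, with DESeq2 and with T and other bases adjusted separately. The calls at C34 of tRNA-Arg-CCT-1-1 and 2-1 were lost without young replicate 2, at differences of -9.8 and -9.7 points. That of tRNA-Trp-CCA-2-1 was lost without young replicate 1, at -9.4 points. The mean rate was lower with CMC in old cells too at all 7 bases, which were chosen for their falls. The old differences at the 6 bases not called in old cells were smaller, from -5.66 to -9.96 points, and the age difference at these falls was not tested.

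The age comparison of the CMC-dependent stop sets the rise with CMC in old cells against that in young cells. It was tested where the rise over all 6 pairs averaged at least 10 points, which 7 anticodon bases did. Of these, 3 were T, at position 35 of tRNA-Tyr-GTA-1-1, 2-1 and 3-1. The others were C34 of tRNA-Leu-CAG-1-1, 2-1 and 4-1 and A34 of tRNA-Val-AAC-1-1. None of the 7 was called by edgeR, 3 had an unadjusted p under 0.05, and of all 498 bases tested 0% were called, with 4.62% at an unadjusted p under 0.05. When the fit was limited to bases below the coverage ceiling, 3 of 4 anticodon bases were called, against 1.21% of 248 bases. That share consists of the same 3 bases, so none outside the anticodon was called. All 3 were position 35 of tRNA-Tyr-GTA-1-1, 2-1 and 3-1, which share most of their sequence. The log2 odds ratio of the CMC-dependent stop, old over young, was 2.07, 1.41 and 1.41 (adjusted p = 0.0059, 0.035 and 0.035).

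That odds ratio and the rise in points differed in sign. In old cells the rise of tRNA-Tyr-GTA-1-1 was lower than in young cells by 4.15 points (SE 6.09), with 31.7 against 35.8 points. For tRNA-Tyr-GTA-2-1 it was lower by 4.98 points (SE 3.77), and the rises of the 2 ages overlapped for all 3 tRNAs. The BEU rate, against which the odds are set, was lower in old cells without overlap: 0.62, 0.87 and 0.57% in old BEU libraries and 2.37, 2.88 and 3.43% in young BEU libraries at tRNA-Tyr-GTA-1-1. The CMC rate of tRNA-Tyr-GTA-2-1 was also lower in every old library, between 36.2 and 43.4%, than in every young library, between 46.2 and 55.1%. That difference was not called. The odds ratio was not called by limma or by DESeq2 below the ceiling. Of the 3 bases, 0 were called without young replicate 2 or without old replicate 3. Only tRNA-Tyr-GTA-1-1 was called without young replicate 3, without old replicate 1 or with the replicate block.

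In BEU alone, the mean stop rate was lower in old cells at 45 of 58 anticodon C and 23 of 31 T, and at 8 of 14 A and 4 of 9 G. At a mean BEU rate of at least 5%, 80 of 112 anticodon bases had a lower mean in old than in young cells (71.4%), against 62.9% of all 1190 bases. In 44 of the 112 (39.3%) every old library was below every young library, against 15.6% of all. In 6 of the 112 every old library was above every young one, a share near that of all bases (66 of 1190, 5.55%). All 6 lay at position 34 of tRNA-Val, 4 of them A (tRNA-Val-AAC-2-1, 3-1, 4-1 and 5-1) and 2 of them C (tRNA-Val-CAC-1-1 and 3-1), and none was called. The arms of tRNA-Val-AAC-2-1, 3-1 and 4-1 are the same, as are those of tRNA-Val-CAC-1-1 and 3-1. These are therefore not 6 separate observations. Below the ceiling, A34 was lower in old cells at 3 of 7 bases, with a median difference of 1.69 points, old minus young. No base was called by edgeR in this fit, 24 anticodon bases had an unadjusted p under 0.05, all lower in old, and the smallest adjusted p was 0.084. Over all 1190 bases 0% were called lower in old cells and 5.8% had an unadjusted p under 0.05.

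Below the ceiling, 19 of 66 anticodon bases were called (28.8%), all lower in old cells, against 5.38% of 893 bases called lower in old. Outside the anticodon 3.75% of 827 bases were called either way. The count depended on the test, as DESeq2 called 4 of the 19 and limma 0. The 19 bases belong to 9 anticodons, and several come from near-identical tRNAs. The fit summed per anticodon kept bases at the ceiling. There edgeR called C34 of Ala-CGC, Arg-CCT and Ser-CGA, C35 of Arg-CCT, and T34 of Gln-TTG and Thr-TGT lower in old cells. It did not call C35 of Trp-CCA, C34 of Thr-CGT, A34 of Thr-AGT or C36 of Val-TAC (adjusted p = 0.15, 0.053, 0.15 and 0.055). C35 of Arg-CCG was not tested in that fit. C made up 16 of the 19, out of 34 tested anticodon C (47.1%), beside 12% of all 158 C and 2.42% of the 124 C outside the anticodon. T made up 2 of 17, A 1 of 10 and G 0 of 5. By position, 10 lay at base 34, 8 at base 35 and 1 at base 36. Every old BEU library was below every young BEU library at 32 of the 66 bases (48.5%), against 15.9% of all 893. The 32 include all 19 called bases, which adds no support because the call used the same values.

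**Figure D5:**
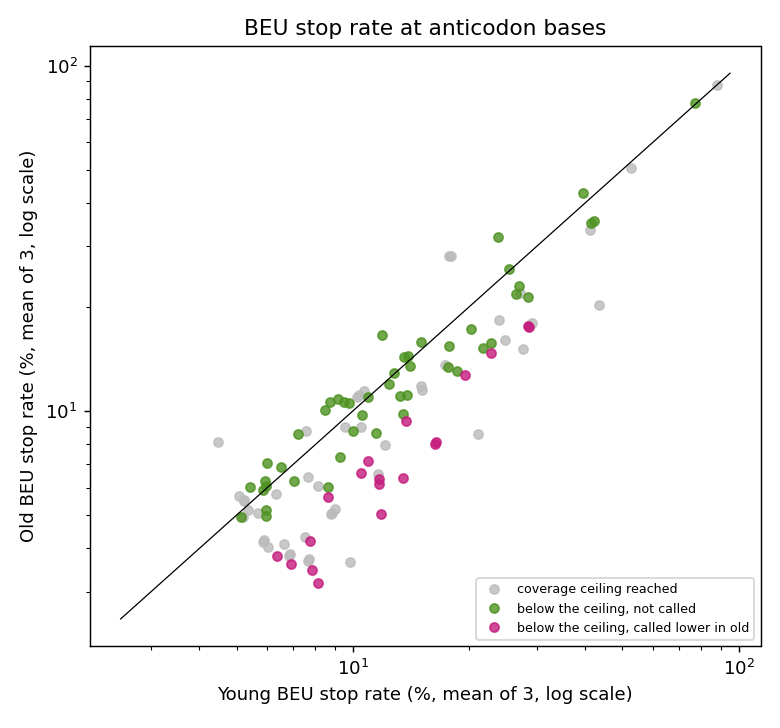
Mean BEU stop rate of 3 old libraries (y axis, percent, log scale) against that of 3 young libraries (x axis, percent, log scale) for the 112 anticodon bases with a mean BEU rate of at least 5%. Points are grey where the coverage ceiling was reached, green where it was not and no difference was called, and pink for the 19 bases called lower in old cells. The line marks equal rates, and 80 of the 112 points lie below it.

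Arg-CCT held 6 of the 19. C34 of tRNA-Arg-CCT-1-1 had 7.54, 7.10 and 9.77% in old BEU libraries and 15.1, 17.9 and 16.2% in young BEU libraries, a difference of -8.28 points (SE 1.17, adjusted p = 6.9e-05 below the ceiling). C35 of the same tRNA averaged 6.13 ± 1.20% in old and 11.7 ± 0.56% in young BEU libraries. C34 and C35 of tRNA-Arg-CCT-2-1 and tRNA-Arg-CCT-3-1 showed lower old rates as well, with differences from -3.53 to -8.32 points. With CMC, too, C34 of tRNA-Arg-CCT-1-1 was lower in old cells, with 2.66, 2.17 and 2.42% in old and 5.26, 5.76 and 6.36% in young CMC libraries.

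The largest difference in points was at T34 of tRNA-Gln-TTG-1-1, the wobble base of the TTG anticodon. It had 17.2, 17.7 and 17.7% in old BEU libraries and 30.03, 30.2 and 25.7% in young BEU libraries, a difference of -11.1 points (SE 1.47, adjusted p = 0.0012). With CMC it had means of 20.9 ± 6.24% in old and 20.5 ± 1.19% in young cells. T34 of tRNA-Gln-TTG-3-1 had nearly the same values. C34 of tRNA-Ala-CGC-1-1 averaged 14.7 ± 1.17% in old and 22.8 ± 1.07% in young BEU libraries (adjusted p = 0.006), and C34 of tRNA-Ser-CGA-1-1 averaged 6.41 ± 2.98% and 13.5 ± 1.67% (adjusted p = 0.00099).

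C34 of tRNA-Thr-CGT-2-1 averaged 3.17 ± 0.58% in old and 8.11 ± 0.72% in young BEU libraries, the lowest log2 odds ratio of the 19 at -1.39. tRNA-Thr-CGT-1-1 had 3.60% and 6.92%, and A34 of tRNA-Thr-AGT-2-1 had 5.63% and 8.63%. At C35, tRNA-Arg-CCG-1-1 and tRNA-Arg-CCG-3-1 had differences of -2.56 and -4.35 points, and tRNA-Trp-CCA-1-1, 3-1 and 4-1 had differences from -3.79 to -4.32 points. C36 of tRNA-Val-TAC-1-1, the single base called at position 36, averaged 12.7 ± 1.04% in old and 19.5 ± 1.60% in young BEU libraries. In 17 of the 19, which were chosen as lower in old cells in BEU, the mean with CMC was lower in old cells too. At a mean CMC rate of at least 5%, it was lower in old cells at 89 of 174 anticodon bases. Over all bases it was lower at 916 of 2385.

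The same direction appeared at base 34 of tRNA-Ile-TAT-2-1, which was covered too thinly for this test. Its BEU rates of 6.55, 6.18 and 8.20% in old and 20.0, 19.9 and 17.8% in young libraries rest on 305 to 1588 reads. With a coverage minimum of 10 reads below the ceiling its log2 odds ratio in BEU, old over young, was -1.68 (adjusted p = 2.1e-06). The CMC-dependent stop had a log2 odds ratio of 1.94 there (adjusted p = 0.011).

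With CMC, no anticodon base was called different between old and young cells. edgeR tested 174 anticodon bases with a mean CMC rate of at least 5%, and 8 had an unadjusted p under 0.05, while 0% of all 2385 bases were called and 3.94% had an unadjusted p under 0.05. Below the ceiling 95 anticodon bases were tested, of which 0 were called and 9 had an unadjusted p under 0.05, beside 8.99% of 1513 bases.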

How the data were processed

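The authors deposited 6 tables, 1 per age and replicate number, each with the coverage, stop reads and stop rate of a BEU and a CMC library at every tRNA base. Per the file headers, coverage and stop reads are counts, and the deposited stop rate is a percent, 100 times stop reads over coverage. The lowest value of the deposited counts is 1. Bowtie, Bowtie2 2.3.5 and the build mm10 are listed, without roles, per the submitters' processing notes. No source used here states which read ends count as stops. Entry names did not match the gene table, so positions within the tRNA are given. RefSeq lists 0 of 430 mouse tRNA genes on chromosome 18 (GRCm38.p6).

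Stop and read-through counts of all 10059 bases with coverage of at least 20 in 12 libraries were fitted with edgeR 4.0.16 in R 4.3.3 (quasi-likelihood, 1 coefficient per library, a log-odds coefficient per group, equal library sizes, no dispersion trend). Benjamini-Hochberg adjustment ran over all bases tested. Age differences were tested at a mean rise of at least 10 points, or a mean rate of at least 5%. The tests were tested on simulated stops at 2 spreads between libraries. The wider one, tried first and near the upper end of the spread measured below the ceiling, left the BEU age changes and most of the smaller CMC changes unrecovered. The narrower one was chosen after that, lies between the measured median and mean of the BEU libraries, and recovered most of the larger changes. Age differences at bases with a wide spread can therefore be missed. Errors are SDs over 3 libraries or pairs, and SEs of age differences combine both groups. Pairs follow the replicate numbers, which did not pair the libraries, so an SD over pairs can understate or overstate the spread. Alternatives used limma 3.58.1 on log odds with 0.5 added, and DESeq2 1.42.0. No 2 libraries held identical values. Reads have no molecular identifiers.

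The named bases are all called ones, position 35 of tRNA-Tyr, positions 34 and 36 of tRNA-Ile-TAT, the best-covered T of each anticodon, and the 10 highest rises, BEU rates and CMC rates (at most 1 per anticodon and position). The anticodon bases, and the tRNAs described, were chosen with earlier results of these data known. tRNA-Arg-TCT and the falls with CMC were chosen after their values were seen.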

Additional observations from a re-analysis of the deposited data

Results flagged for a closer look

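Position 35 of tRNA-Tyr-GTA-1-1 had a CMC-dependent stop whose log2 odds ratio, old over young, was 2.07 below the coverage ceiling, where the test of the age difference itself passed. It also passed for 2-1 and 3-1 of the same anticodon, each with a log2 odds ratio of 1.41. The rise in points went the other way, with 31.7 in old and 35.8 in young cells at tRNA-Tyr-GTA-1-1. None of the 3 was called in the fit of all bases, nor below the ceiling with limma, DESeq2 or a coverage minimum of 50. The BEU rate at this base was lower in old cells, as described above. At position 35 of tRNA-Ser-GCT-1-1, a C, all 3 old pairs were higher with CMC and all 3 young pairs were lower, which makes a difference of 18.8 points, old minus young. This difference was not tested, and 2 of the 12 libraries were at the coverage ceiling there.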

How the results depend on the processing

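Main counts, old and young, were 5 and 5 anticodon bases with a rise, 1 and 7 with a fall, and 0 in each of the 3 age comparisons (CMC-dependent stop, BEU rate, CMC rate). A coverage minimum of 50 reads gave 2 and 0 rises and 0 and 5 falls, a minimum of 10 gave 8 and 7 rises, and a minimum of 1 gave 38 and 17. These minimums left 289, 456 and 558 anticodon bases. Over all bases, rises were 359 and 325 at the minimum of 50, 557 and 493 at 10, and 929 and 658 at 1. Counting every entry gave 11 and 10 rises of 919 anticodon bases, beside 1022 and 925 over all bases. A 5-point minimum gave 21 and 10 rises of 406, beside 740 and 559 of all 10059, and 6 and 14 falls. For falls and the age comparisons, all-base counts under alternatives are given only where stated above. Summing per anticodon gave 0 and 0 falls and 6 age differences in the BEU rate. In the BEU rate, DESeq2 called 4 with all bases, and 19 were called below the ceiling by edgeR, where 3 were called in the CMC-dependent stop. The age comparison of the CMC rate stayed at 0 under every alternative run. Leaving out 1 replicate gave 4 to 5 rises in old and 4 to 6 in young cells, 0 to 1 falls in old and 4 to 8 in young cells, and 0 in each age comparison.

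Below the ceiling, alternatives were added after seeing the data. For the BEU rate limma called 0 and DESeq2 4 bases, a coverage minimum of 50 called 15, a minimum rate of 1% called 28, and leaving out 1 replicate gave 13 to 17. For the CMC-dependent stop limma, DESeq2 and a coverage minimum of 50 called 0, and leaving out 1 replicate gave 0 to 3. The cause of these differences was not tested, except that higher coverage minimums leave fewer bases. No single base named here changed sign where it was called. The replicate numbers did not pair the libraries: correlations of same-numbered deviations ran from -0.63 to 0.59 between old and young BEU libraries, from -0.42 to 0.16 between old and young CMC, from -0.14 to 0.04 between old CMC and BEU, and from -0.11 to 0.03 between young CMC and BEU. Below the ceiling they ran from -0.52 to 0.39, -0.45 to 0.03, -0.33 to 0.25 and -0.33 to 0.08 in the same order, and at most 1 of 3 libraries correlated best with its own number. With the replicate block, rises were 4 and 5 and falls 1 and 5, and below the ceiling 18 BEU rate differences and 1 difference in the CMC-dependent stop were called.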
